A study of Rattus norvegicus with 12 samples.

Results

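The imprinted Dlk1-Dio3 miRNA cluster was examined in the soleus, a slow postural muscle, of 12 male rats. Its members were the rows of the rat miRNA array named with 1 of 39 miR numbers of this cluster, with any letter or arm and without star names (a star marks the less abundant strand of a hairpin in older naming). All 39 numbers were found, in 45 of the 677 rat miRNAs measured. The 32 star rows with the same numbers were kept apart and are given beside their partners.

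The rats were Sprague-Dawley offspring at 1 year of age, 6 of control dams (rats C73, A110, C60, H10, A89 and A75) and 6 of dams that received a high fat diet through pregnancy and lactation (rats C51, H3, H1, C25, H20 and A37). According to the methods the high fat diet also held more sucrose and began before mating, and all offspring ate chow from weaning, so the groups differ in what the mother ate and not in what the adult rats ate. Each rat was measured on 1 single-colour Agilent array, with 3 rats of each group on each of 2 slides. The litter of a rat and the meaning of the letter in its label are not given, so a p-value here measures the spread between these rats, some of which may be littermates.

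The Dlk1-Dio3 domain is imprinted: the protein-coding genes Dlk1, Rtl1 and Dio3 are read from the paternal chromosome, while the non-coding RNA Meg3 and the miRNAs that follow it are read from the maternal one. The miRNAs are known as a large group that is abundant in the embryo, the placenta and the brain and in the precursor cells of muscle. Several of them, miR-127 and miR-136 among these, lie opposite the Rtl1 gene and are perfect complements of its mRNA, which they cleave.

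In the RefSeq annotation of the rat genome build GRCr8 all 45 members could be placed. They lay on the plus strand of chromosome 6, between Dlk1 and Dio3, in 41 of the 57 miRNA genes counted from the first member to the last. miR-770 lay within Meg3, and 5 members (miR-431, miR-433, miR-127, miR-434 and miR-136) lay within the span of Rtl1. The mature sequences below, from the RefSeq table of the same build, are those the results turn on, with the seed (bases 2 to 8, which pair with target mRNAs) in capitals. The array files do not state the arm of a name without a suffix, so the arm shown for these names follows the naming of the period. No entry was matched for miR-136 itself, and its star strand is shown. The first lines are miRNAs that were more than 2-fold higher in 1 rat, C73, than the median of the other rats, and the last 3 are miRNAs that were not.
miR-127-3p: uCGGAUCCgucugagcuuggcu
miR-434-3p: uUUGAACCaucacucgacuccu
miR-136-3p (miR-136*): cAUCAUCGucucaaaugagucu
miR-379-5p: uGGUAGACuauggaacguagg
miR-411-3p (miR-411*): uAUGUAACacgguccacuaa
miR-299a-5p: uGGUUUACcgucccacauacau
miR-329-3p: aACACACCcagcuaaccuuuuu
miR-300-3p: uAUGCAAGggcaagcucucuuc
miR-381-3p: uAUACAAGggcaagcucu
miR-494-3p: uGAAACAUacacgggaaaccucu
miR-487b-3p: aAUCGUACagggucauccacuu
miR-409a-3p: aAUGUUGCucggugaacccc

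No seed was shared among these sequences. They were listed at chr6:134328510-134328531 for miR-127-3p, chr6:134330451-134330472 for miR-434-3p and chr6:134331383-134331404 for miR-136-3p, all within Rtl1. Further along the same strand came miR-379-5p at chr6:134543460-134543480, miR-300-3p at chr6:134559968-134559989, miR-381-3p at chr6:134562422-134562439 and miR-487b-3p at chr6:134562939-134562960. miR-300-3p and miR-381-3p differed over the 18 bases compared at 1 position, G4A, counted from 1 at the 5′ end with the base of miR-300-3p first. Whether the array's probes tell these 2 apart is not given in the files and was not tested. miR-300-3p was detected in 11 rats and miR-381 in 4 of them.

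Signals are given in scaled units. The scale of an array was the 75th percentile of its signals over the 162 miRNAs that every array detected, and a factor shared by all arrays returned the values to the scanner's units. Values under a floor of 5.13, and miRNAs that the scanner software did not detect, were set to that floor. Between 177 and 220 miRNAs were detected per array. The muscle miRNAs miR-1, miR-133a, miR-133b and miR-206 were detected in every rat. In miRNAs outside the cluster 1 library was unlike the rest, that of rat H3 in the high fat group. Its summed slow muscle miRNAs (miR-499 and miR-208b) came to 363 scaled units against 4561 to 9194 in control offspring. The fold change of miR-487b, which was lowest in H3, and the count of members at an unadjusted p under 0.05 are given without H3 too.

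Most of the cluster, like most miRNAs of the array, was not measurable in the adult soleus. Of the 45 members, 30 were not detected in any rat, 7 were detected in 1 to 5 rats and 8 in at least 6. The share detected in at least 1 rat was 33.3% of the members and 36.2% of all 677 miRNAs, and the share detected in at least 6 rats was 17.8% and 28.5%. Only miR-487b and miR-494 were detected in all 12. An undetected miRNA was below the background limit of the array, which does not show that it was absent.

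Detected members were scattered along the cluster rather than gathered at 1 end, as the plot of detection in chromosomal order shows. Upstream of Rtl1 miR-337 was the 1 detected member of 4, within Rtl1 miR-127, miR-434 and miR-136 were detected and miR-431 and miR-433 were not, and after Rtl1 11 of 36 were detected. The undetected members were miR-154, miR-300-5p, miR-323, miR-341, miR-369-3p, miR-369-5p, miR-376a, miR-376b-3p, miR-376b-5p, miR-376c, miR-377, miR-380, miR-382, miR-409-5p, miR-410, miR-411, miR-412, miR-431, miR-433, miR-485, miR-493, miR-495, miR-496, miR-539, miR-541, miR-543, miR-665, miR-668, miR-758 and miR-770. For both hairpins with the arms named apart and 1 of them detected, miR-300 and miR-409, it was the 3p arm.

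**Figure D1:**
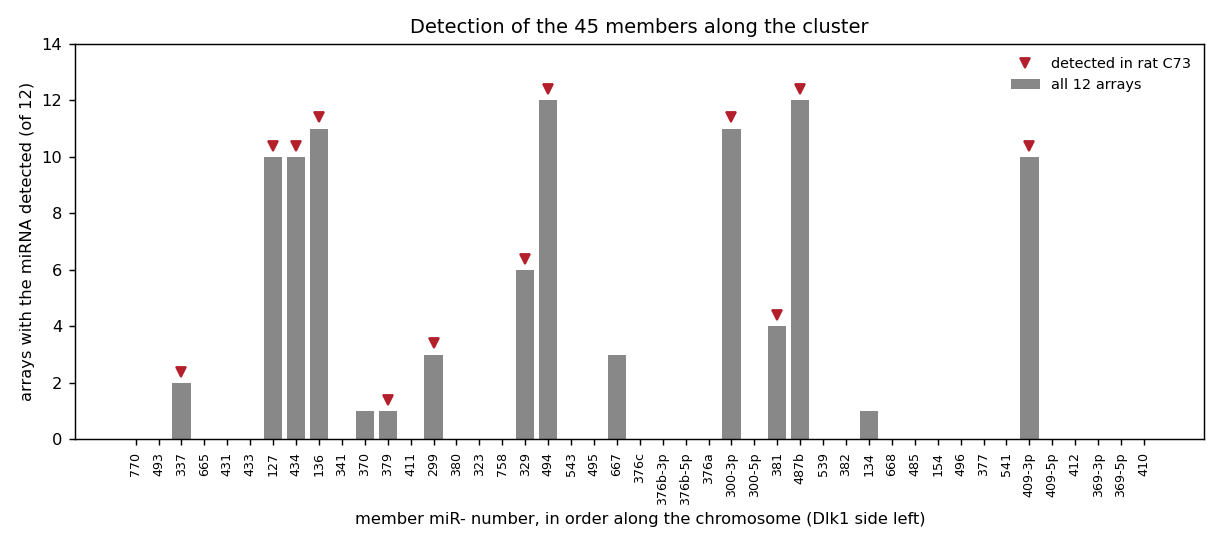
Number of arrays (of 12, vertical axis) on which each of the 45 members was detected, in order along chromosome 6 from the Dlk1 side. Red triangles mark the members detected in rat C73, in which 12 of the 15 members detected in any rat were detected, as many as in A89.

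Star strands were mostly undetected too. Of the 32 star rows, 29 were not detected in any rat (90.6%), beside 77.9% of all 240 star rows on the array. miR-136* and miR-411* were detected in the control rats C73 and A89 and in no other rat, at 41.6 and 9.01 scaled units for miR-136* and at 48.8 and 8.05 for miR-411*, although the unstarred miR-411 was not detected anywhere. miR-770* was detected in all 12 rats, from 58.2 in H3 to 217 in C73, while miR-770 was detected in none.

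The largest departures of the detected members from the median rat belonged to 1 animal, the control rat C73. Compared with the median of the other 11 rats, 9 of the 15 detected members were more than 2-fold higher in C73, against 20 of the 245 miRNAs detected in any rat (8.16%). Of these, 8 members were more than 4-fold higher, against 11 of 245 (4.49%). The median of the 15 members lay 2.11 log2 units above the other rats and the median of all 245 miRNAs 0.16 above. Detection in 1 rat was enough to count, so miR-379, detected in C73 alone, is among the 15 only through C73. For the 8 members detected in at least 6 rats the median lay 1.84 above, and for all 193 miRNAs so detected 0.22 above. Of these 8, miR-329 was detected in exactly 6 rats with C73 among them, so it too is included only through C73. These counts describe 1 animal and have no replicate, so no test was made. In whole muscle, more cells that hold these miRNAs and more miRNA per cell cannot be told apart.

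Of the 12 miRNAs with the largest excess in C73, 11 were members or star strands of the cluster. The cluster supplied 15 members and 3 star strands of the 245 miRNAs ranked. For miR-381, miR-299, miR-379, miR-337, miR-329, miR-136* and miR-411* the median of the other rats lay at the floor, so their excess is measured from the floor. The count of 11 became 7 with a floor 4 times higher and 8 with a floor 4 times lower. With the higher floor the median of the 15 members was 0.42 log2 units above the other rats. miR-381 led with 159 scaled units, at least 4.95 log2 units above the median of the others, which lay at the floor. It was detected in 3 other rats, at 29.3 in A89, 22.3 in H20 and 17.8 in C25. miR-136 was 3.40 and miR-300-3p 3.11 log2 units above the median of the others. Whether the signals of miR-300-3p and miR-381 are separate readings was not tested. The differences were 2.15 for miR-127, 2.13 for miR-434 and 1.55 for miR-329, the last of these from 15.1 scaled units in C73.

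Among the sparsely detected members, miR-379, the first hairpin of the long run of miRNAs downstream of Meg3 and Rtl1, was detected in C73 alone at 23.3 scaled units. miR-299 was detected at 36.8 in C73, 9.06 in H1 and 8.89 in A89, and miR-337 at 22.2 in C73 and 8.59 in A89. These members were seen mainly where the others were high. The exception outside the cluster among the 12 was miR-122, the main miRNA of liver, which ranked second in C73 at 403 scaled units and was also at 300.1 in C25 and 256 in H10, rats in which 2 and 0 of the 15 members were more than 2-fold higher.

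Members did not all take part. In C73 miR-487b was 0.42, miR-494 0.20 and miR-409-3p 0.67 log2 units above the other rats, and miR-134, miR-370 and miR-667 were not detected there. These last 3 were instead detected in H3, at 23.4 for miR-134, 9.69 for miR-370 and 9.33 for miR-667, and miR-667 also in C25 at 6.96 and in A89 at 7.74. miR-134 and miR-370 were each detected in H3 only, the rat that stood apart in other miRNAs. In H3, 33 of 245 miRNAs (13.5%) were more than 2-fold higher than the median of the others, among them 2 members, miR-134 and miR-329.

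**Figure D2:**
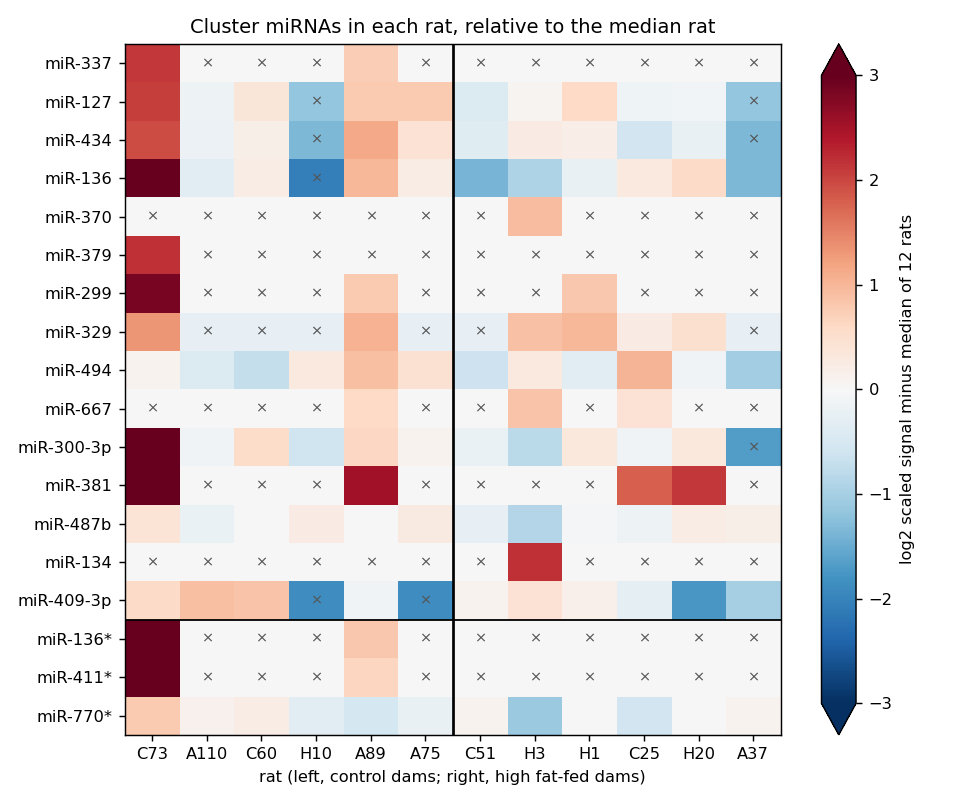
Log2 scaled signal of the 15 detected members, in chromosomal order, and of the 3 detected star strands below the line, each relative to its own median over the 12 rats (columns, control offspring left). Crosses mark rats in which the miRNA was not detected and which sit at the floor, and the colour scale ends at 3 log2 units in both directions. C73 is high in 11 of the rows by more than 1 log2 unit and pale for miR-487b and miR-494.

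Other rats departed from the median by less. The control rat A89 came next, with 5 of 15 members more than 2-fold higher, against 26 of 245 miRNAs (10.6%). These were miR-381 (at least 2.51 log2 units), miR-434 (1.32), miR-329 (at least 1.27), miR-136 (1.22) and miR-494 (1.01). A89 also had the most miRNAs detected of any array, so its share of members stands beside a larger share of all miRNAs.

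At the low end were 1 control rat and 1 rat of a high fat-fed dam. In both, miR-134, miR-299, miR-337, miR-370, miR-379, miR-381 and miR-667 could not be lower, because their median in the other rats lay at the floor. For miR-329 the floor lay less than 2-fold below that median, at -0.47 log2 units. Other miRNAs of the 245 that were detected in few rats were limited in the same way. In the control rat H10, 4 of 15 members were more than 2-fold lower than the median of the others, against 15 of 245 miRNAs (6.12%). Those were miR-136 (-2.27), miR-409-3p (-1.97), miR-434 (-1.52) and miR-127 (-1.24), none of which was detected in H10, so that each difference is at least of this size. H10 had 3 members detected, the fewest of the 12, and it also had the fewest of all miRNAs detected, 177. In A37, of a high fat-fed dam, 6 of 15 were lower, against 20 of 245 (8.16%), among them miR-136, detected at 8.39 scaled units (-1.57), and miR-300-3p and miR-434, which were not detected in A37 and for which -1.77 and -1.52 are differences to the floor, so that the true differences are at least as large. The highest and the lowest control rat thus bracketed all 6 rats of the other group for miR-136, and for miR-127 and miR-434 H10 and A37 were the 2 rats in which neither was detected.

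**Figure D3:**
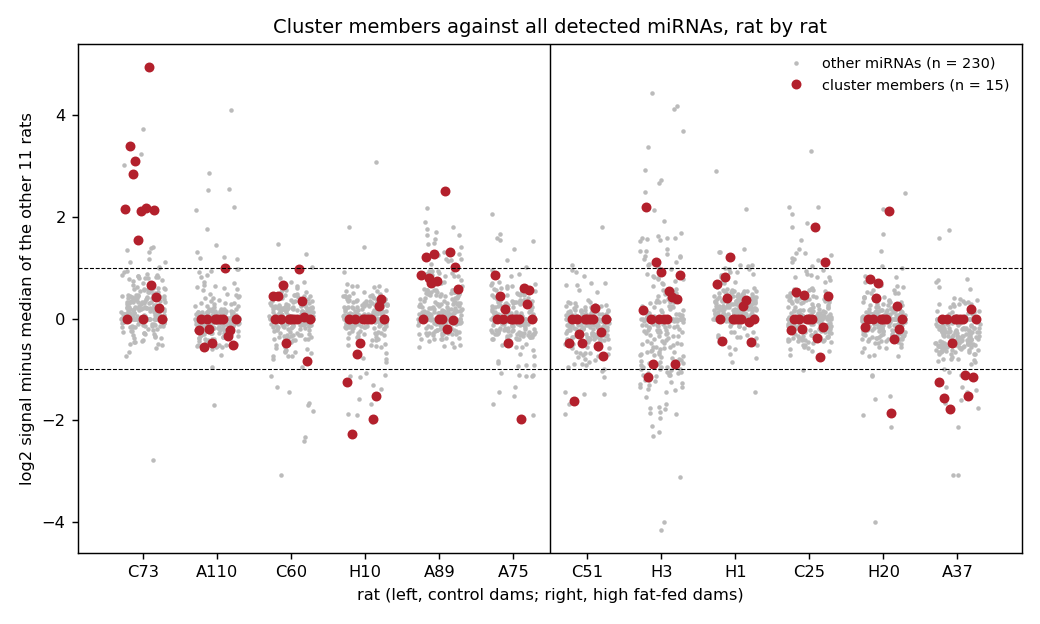
Log2 signal of each miRNA minus its median in the other 11 rats (vertical axis), for the 15 detected members (red) and the other 230 detected miRNAs (grey), rat by rat. Dashed lines mark a 2-fold difference. The red points of C73 reach 4.95 and 9 of them lie above the upper line, while in H3 the grey points spread widely in both directions.

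Marker miRNAs of other cell types were set beside this pattern. All 3 fibroblast miRNAs (miR-199a-3p, miR-199a-5p and miR-214) were detected in every rat. Their summed level ran from 2739 to 7051 scaled units in the control group and from 2328 to 7347 in the high fat group. The sum was 7347 in C25, 7051 in A89 and 6654 in C73, so the 2 rats with the most members more than 2-fold higher were among the 3 highest. In C25, 2 of 15 members were more than 2-fold higher than the median of the others. Over the 12 rats each sum was set against the mean log2 signal of 5 members that moved together (miR-127, miR-434, miR-136, miR-300-3p and miR-329, picked after their values were seen). The Spearman correlation was 0.66 for the neural sum and 0.54 for the fibroblast sum. It was 0.22 for blood, 0.21 for vessel (miR-126, miR-143 and miR-145), 0.16 for liver and epithelium, 0.08 for skeletal muscle and 0.07 for slow muscle.

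Of the 5 neural miRNAs, miR-124 and miR-129 were not detected in any rat and miR-9 and miR-138 were detected in A89 only. The summed neural level, nearly all of it miR-219-5p, was 16.8 to 60.7 in control offspring and 12.5 to 48.3 in the others, with 53.4 in C73. The 4 blood miRNAs on the array were all detected, with a sum of 1587 to 3837 in control offspring, 1378 to 4143 in the high fat group and 2883 in C73. The liver and epithelium list, of which 4 of 6 were detected, was highest in C73 at 486, most of it miR-122, against 30.5 to 301 in the other control rats and 31.0 to 349 in the high fat group. miR-129-1*, a strand of a miR-129 hairpin outside the list, was detected in 3 control rats and 3 rats of the high fat group. It was at least 2.87 log2 units above the median of the other rats in A110 and 1.46 in C60. In C73, at 12.7 scaled units, it was at least 1.30 above. The part of these cells in the level of the cluster was not tested.

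The diet of the dam was the comparison for which the rats were bred. No member passed the threshold in limma: 0 of the 8 tested had an adjusted p under 0.05, as did 0 of all 193 miRNAs tested (0%). At an unadjusted p under 0.05 stood 0 of 8 members and 2 of 193 miRNAs (1.04%). The mean of 7 of the 8 was lower in offspring of high fat-fed dams, against 154 of 193 (79.8%), so a lower mean was common to most miRNAs under this scaling. The median log2 change was -0.45 for the 8 members and -0.17 for the 193.

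The direction depended on the scaling. The share of all 193 miRNAs with a lower mean was 48.7% when all miRNAs set the percentile, 51.8% after quantile normalization and 20.7% without scaling, with 6, 6 and 4 of the 8 members lower. Relative to the median of all miRNAs, 6 of the 8 were lower under the scaling used and under each of these 3.

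The members within Rtl1 were lower on average, with wide spread. miR-127, which cleaves the Rtl1 mRNA, was at the floor in H10, at a median of 17.2 and at most at 48.2 scaled units in control offspring. In offspring of high fat-fed dams it was at the floor in A37, with a median of 10.6 and a maximum of 17.3. C73, A89 and A75 lay above all 6 of the high fat group, and the other 3 control rats overlapped them. The log2 fold change was -0.63 (SE 0.45, limma adjusted p = 0.685; exact two-sided permutation p = 0.247 over 924 assignments of 6 and 6 rats).

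miR-434, processed from a hairpin close to that of miR-127, ranged from the floor in H10 through a median of 16.2 to 51.03 in C73. In the high fat group it ranged from the floor in A37 through 10.7 to 15.7. Again C73, A89 and A75 were above every rat of the high fat group. The log2 fold change was -0.71 (SE 0.47, limma adjusted p = 0.685; exact permutation p = 0.203).

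miR-136, the other detected miRNA opposite Rtl1, spanned the widest range, from the floor in H10 through a median of 24.9 to 193 in C73, which is 37.5-fold from the floor to the top among 6 rats of 1 group. In offspring of high fat-fed dams it ran from 8.05 to 31.5, a 3.92-fold range. C73 and A89 lay above the whole high fat group and H10 below it. The log2 fold change was -0.88 (SE 0.69, limma adjusted p = 0.685; exact permutation p = 0.305), and it was -1.87 on the first slide, which held C73, and 0.12 on the second.

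Further downstream, miR-300-3p was 10.9 in the lowest control rat, 20.8 at the median and 132 in C73. It was at the floor in A37, 14.7 at the median and 20.3 at most in the high fat group. The next highest rat to C73 was A89 at 24.98, which with C60 at 24.1 was also above every rat of the high fat group. Its log2 fold change of -0.96 (SE 0.54) had the smallest p of the members (unadjusted limma p = 0.0992, adjusted p = 0.685; exact permutation p = 0.136).

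miR-329 was detected in 2 control rats, C73 at 15.1 and A89 at 12.4, and in 4 rats of the high fat group, from 7.11 to 11.97. The remaining rats were at the floor in both groups, and the mean difference was 0.12 (SE 0.34, limma adjusted p = 0.913; exact permutation p = 0.784). It was the 1 tested member with a higher mean in the high fat group.

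miR-409-3p was at the floor in H10 and A75 and otherwise between 17.4 and 34.8 in control offspring, with a group median of 22.5. In the high fat group it lay between 5.54 and 25.2 with a median of 17.8. The groups overlapped over nearly their whole range, and C73, at 27.6, was below A110 and C60. The log2 fold change was -0.14 (SE 0.56, limma adjusted p = 0.953; exact permutation p = 0.805).

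The 2 members detected in all rats varied less within groups. miR-487b ran from 225 through a median of 283 to 342 scaled units in control offspring and from 141 through 241 to 304 in the high fat group, where the lowest value was that of H3. The groups overlapped and C73 was the highest rat of the 12. The log2 fold change was -0.27 (SE 0.19, limma adjusted p = 0.685; exact permutation p = 0.167) and -0.13 without H3.

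miR-494, reported to act on the mitochondrial transcription factor Tfam, ran from 79.4 through 150 to 246 in control offspring and from 63.3 through 113 to 264 in the high fat group. The highest rats were C25, of a high fat-fed dam, and A89, and C73 was below the control median at 140.5. The log2 fold change was -0.24 (SE 0.35, limma adjusted p = 0.788; exact permutation p = 0.528). miR-770*, the star strand detected everywhere, changed by -0.25 (SE 0.26, limma adjusted p = 0.722). Its lowest rat was H3, at 58.2 scaled units, and its change without H3 is not given here.

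**Figure D4:**
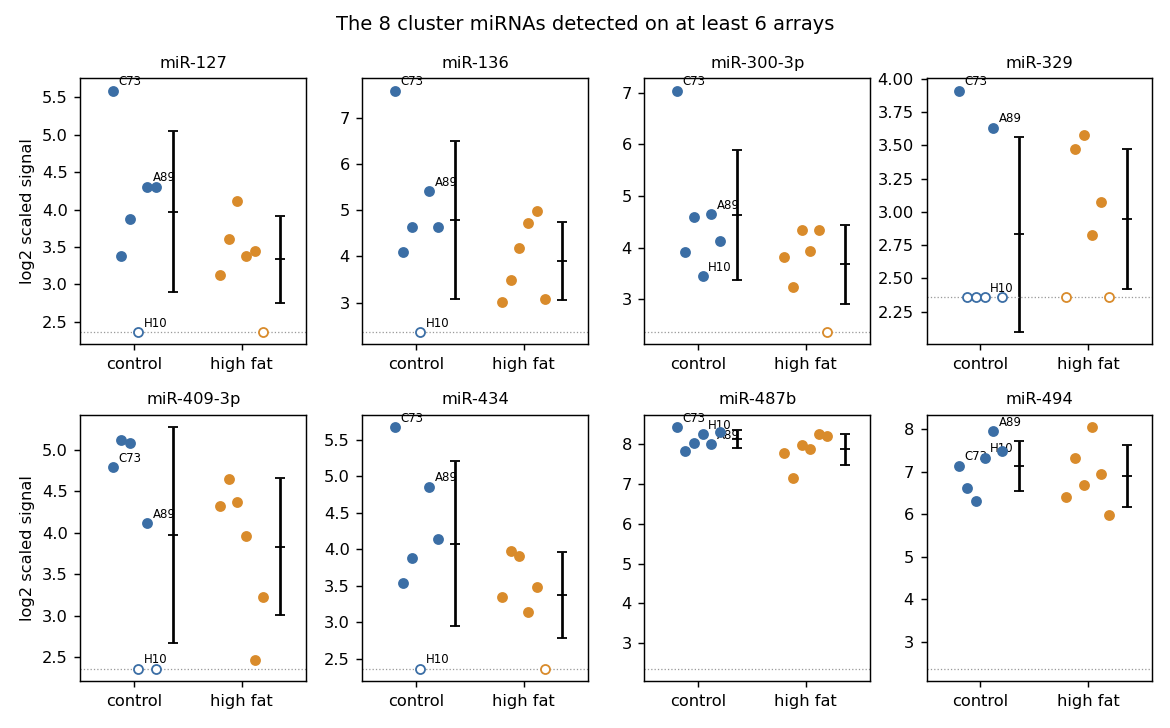
Log2 scaled signal of the 8 tested members in each rat, by dam diet, with the mean and SD of each group beside the points (n = 6 each). Open circles are rats in which the miRNA was not detected and the dotted line is the floor. C73, A89 and H10 are named, and C73 is the highest point for miR-127, miR-136, miR-300-3p, miR-329, miR-434 and miR-487b.

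These differences depended on single rats. Without C73 the log2 fold change of miR-127 moved from -0.63 to -0.31, that of miR-136 from -0.88 to -0.32, that of miR-300-3p from -0.96 to -0.47 and that of miR-434 from -0.71 to -0.39. The other tested members were at 0.33 (miR-329), 0.02 (miR-409-3p), -0.21 (miR-487b) and -0.24 (miR-494) without C73. Without H10, the low control rat, the 4 named first moved the other way, to -0.96, -1.36, -1.19 and -1.05, and their unadjusted limma p-values became 0.0275, 0.0398, 0.0469 and 0.0193. These were 4 of the 6 miRNAs of 193 (3.11%) at an unadjusted p under 0.05 without H10, with adjusted p = 0.736 for each of the 4. Leaving out A37, of a high fat-fed dam, gave -0.44 for miR-127, -0.71 for miR-136 and -0.69 for miR-300-3p. With all 12 rats, or with H3 or C73 left out, 0 members were at an unadjusted p under 0.05 in limma.

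**Figure D5:**
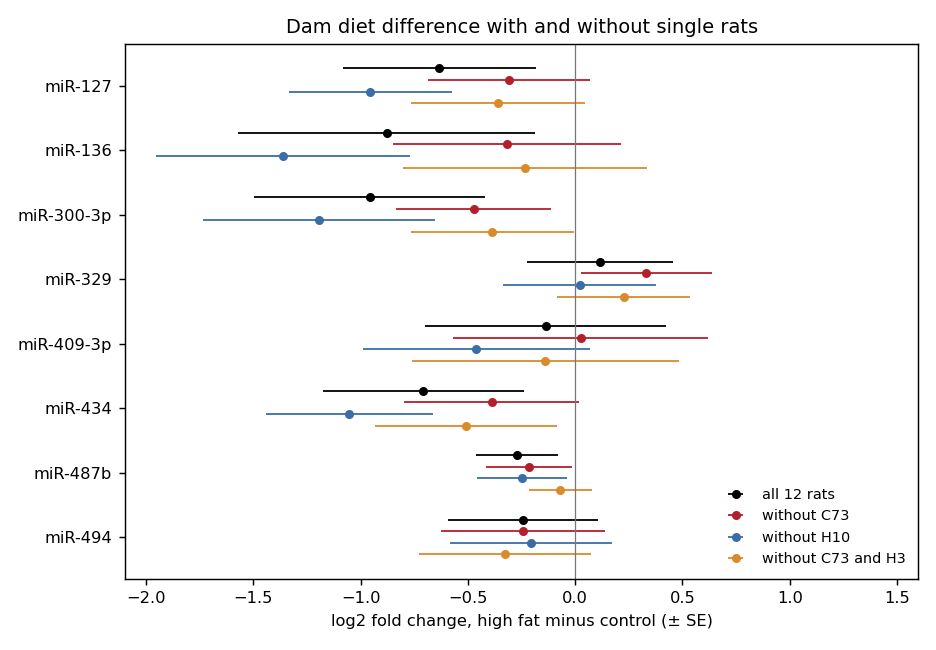
Log2 fold change with its SE, high fat minus control, of the 8 tested members with all 12 rats and with C73, H10, or C73 and H3 left out. For miR-127, miR-136, miR-300-3p and miR-434 the estimate moves toward 0 without C73 and away from 0 without H10, while those of miR-487b and miR-494 move little without C73 or H10.

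Detection did not separate the diets either. The 2-sided Fisher's exact test gave p of at least 0.455 for each member detected in 1 to 11 rats, with adjusted p = 1, and 0 of the 83 miRNAs detected in 1 to 11 rats (0%) had an unadjusted p under 0.05. Among the tested members miR-329 was detected in 2 control rats and 4 of the high fat group, and miR-409-3p in 4 and 6.

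Members varied together over the rats in part. Over the 28 pairs of the 8 tested members the median Spearman correlation of log2 signals over 12 rats was 0.37, against 0.19 over all pairs of the 193 miRNAs. The points share arrays and the scaling, and the median of the members was 0.02 when all miRNAs set the percentile, against 0.42 over all pairs, so which of these medians was higher turned with the scaling. The closest pair was miR-127 and miR-434, which are neighbours within Rtl1, with a Spearman correlation of 0.94 and a Pearson correlation of 0.97, and with 0.93 and 0.94 without C73.

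A group of 5 members, picked after their values were seen, moved together most: miR-127, miR-434, miR-136, miR-300-3p and miR-329. Their 10 pairs had Spearman correlations from 0.57 to 0.94 with a median of 0.69. The median was 0.59 without C73, 0.82 with slide means subtracted and between 0.66 and 0.74 under the other 3 scalings. Without both C73 and A89 it was 0.44, with the lowest pair at 0.23, against a median of 0.16 over all pairs of the 193 miRNAs. When all miRNAs set the percentile the lowest of the 10 pairs was at 0.09, and the median over all pairs of the 193 was 0.42. The rats lay in the order C73, A89, H1, A75, C60, H20, C25, H3, A110, C51, H10 and A37 by the mean log2 signal of these 5, from 5.96 in C73 and 4.57 in A89 to 2.58 in H10 and 2.50 in A37. The first 2 rats were control offspring and the last 2 came 1 from each group. miR-494, which lies among these hairpins on the chromosome, and miR-487b, which lies just beyond the last of them, had a Spearman correlation of 0.13 with each other, and miR-409-3p correlated at -0.45 with miR-487b.

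The mean log2 signal of the 8 tested members was 4.94 ± 0.81 (SD, n = 6) for the control group and 4.48 ± 0.42 (SD, n = 6) for the high fat group. Without C73 the control mean was 4.68 ± 0.54 (SD, n = 5). For the 2 members detected in all rats the means were 7.64 ± 0.35 and 7.38 ± 0.34 (SD, n = 6 each). Each of these differences was smaller than the SD of the control group. As scaled here, the difference was -0.26 for the 2 members and -0.46 for the 8. For the 2 it was -0.09 with all miRNAs setting the percentile, -0.06 after quantile normalization and 0.05 without scaling. For the 8 it was -0.30, -0.34 and -0.22 in the same order.

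Outside the cluster, the 5 miRNAs whose rat-by-rat level was most like the mean of the 8 members were miR-324-5p (Spearman 0.91), miR-500 (0.88), miR-301a (0.83), miR-148b-3p (0.80) and let-7e (0.78). They were taken from 160 miRNAs detected in all rats, for which the median was 0.36 over the same 12 rats. Without C73 they were at 0.93, 0.87, 0.78, 0.77 and 0.74. All of these values share the arrays and 1 scaling, and the ranking was not repeated under other scalings.

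The array also held 20 rows for miRNA genes that lie among the members but carry other numbers. Of these only miR-3544, read from the strand opposite miR-337, was detected, at 88.98 scaled units in the control rat A110 and 8.40 in C51 of the high fat group. It was not detected in C73.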

How the data were processed

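Soleus RNA of 12 rats was hybridised to 1-colour Agilent 8x15K rat miRNA arrays. The authors deposited, per array, the scanner software's total signal intensity of each miRNA with a detection flag, with background subtracted and spots combined but with no scaling between arrays. The software version is not given in the sources used here. Their value table held the same intensities. Undetected miRNAs are listed at 0.1.

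After 22 control rows were left out, arrays were scaled as described above, and log2 values were taken after a floor of 5.13. The diets were compared in limma 3.58.1 (R 4.3.3) for 193 miRNAs, those seen on 6 or more arrays, p-values being adjusted by Benjamini-Hochberg, and single miRNAs with exact permutation tests (924 assignments, or 400 within slides) and Fisher's exact test in scipy 1.17.1 (Python 3.11.15). The precision is limited by the number of arrays. All members were named in the text by detection class. The members and lists were chosen with earlier results of these data known. Slides were read from the file names. Alternatives covered scaling, floor, detection filter, slide and label letter as blocks, array weights, the methods' t-test and each rat left out.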

Additional observations from a re-analysis of the deposited data

Results flagged for a closer look

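Within each diet group the highest and the lowest of the 6 rats were compared with the rest by Dixon's gap test on scaled signal, for the 15 detected members, the 3 detected star strands and miR-3544. Of 32 groups that varied, 15 had such a rat. Chance flags about 1 group in 20 where all values are measured, a rate that does not hold for miRNAs at the floor in most rats. For 7 of the 15 no other rat of the group had a detected signal, so the gap is that between a detected signal and the floor, and of the 9 groups with the miRNA detected in all 6 rats 1 was set apart.

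C73 was the rat set apart in 9 of the 15. Its values were 48.2 for miR-127 (other control rats at most 19.8), 193 for miR-136 (at most 42.5), 36.8 for miR-299 (at most 8.89), 132 for miR-300-3p (at most 24.98), 22.2 for miR-337 (at most 8.59), 23.3 for miR-379 (others not detected) and 159 for miR-381 (at most 29.3). For the star strands they were 41.6 for miR-136* (at most 9.01) and 48.8 for miR-411* (at most 8.05).

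H3 was set apart in its group for miR-134 at 23.4 and miR-370 at 9.69, H1 for miR-299 at 9.06, A89 for miR-667 at 7.74, and A110 and C51 for miR-3544 at 88.98 and 8.40. In each of these the other 5 rats of the group were not detected.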

How the results depend on the processing

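The diet comparison was repeated under 24 alternatives, 12 of which left out 1 rat each, and under 1 more, without C73 and H3 together, that was chosen after the data were seen. The number of members past the adjusted threshold in limma was 0 under every alternative run, as was the number of all miRNAs. Of 185 fold changes of single members under the 24 alternatives, 173 kept their direction and 12 turned. miR-409-3p turned to 0.13 with all miRNAs setting the percentile, 0.16 after quantile normalization, 0.15 without scaling and 0.53 with a floor 4 times lower, and ran from -0.46 to 0.14 with single rats left out, above 0 without C73 (0.02), A110 (0.09), C60 (0.09) or H20 (0.14). miR-329 turned to -0.039 with the label letter as a block and ran from -0.012 (without H1) to 0.33. Without scaling miR-487b turned to 0.038 and miR-494 to 0.067. The number of members with a lower mean was 4 without scaling, 2 with only miRNAs detected on all 12 arrays (2 members tested), 11 of 15 with those detected on at least 1 array, and 6 to 8 with single rats left out. At an unadjusted p under 0.05 there was 1 member with the label letter as a block and 0 to 4 with single rats left out, the 4 without H10. The methods' t-test gave 0 of 8 members and 2 of 193 miRNAs at an unadjusted p under 0.05 and 0 after Benjamini-Hochberg adjustment. With a floor 4 times higher miR-329 could not be fitted. No paired analysis was possible because the rat labels share no replicate numbers between the groups.

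For C73, 8 members were more than 2-fold above the other rats with all miRNAs setting the percentile or after quantile normalization, 9 without scaling or with the lower floor and 5 with the higher floor, where 10 of 245 miRNAs were (4.08%). The cause of these changes was not tested. Members at a few signal units lie close to the floor, where their fold changes are least certain.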
